A study of Mus musculus with 6 samples.

Results

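The glutathione and NRF2 antioxidant genes are 34 genes that make and recycle glutathione, couple it to reactive compounds, remove peroxides and superoxide, or are classic targets of the transcription factor NRF2. They were chosen by symbol, and all 34 were found among the 25901 rows of the deposited expression table, each in a single row. RNA abundance was measured in heart tissue of 3 wild-type (WT) and 3 SRAKO mice. The series concerns the steroid receptor RNA activator, an RNA of the gene Sra1, and the labels neither spell out SRAKO nor describe its allele. Mice of both genotypes had received isoproterenol, an agonist of beta-adrenergic receptors that enlarges the heart, over 4 weeks. The comparison is therefore between genotypes under the same stimulus, and unstimulated hearts were not analysed here. The labels name no strain, sex, age or litter, and do not say outright that each heart came from its own animal, so the p-values measure the spread between these samples. The numbers in the sample names (WT2368, WT2379 and WT2378, and SRAKO2365, SRAKO2371 and SRAKO2372) are those of the submitters.

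NRF2, the product of Nfe2l2, is held in the cytoplasm and marked for destruction by KEAP1. Oxidants and electrophiles modify cysteines of KEAP1, NRF2 then enters the nucleus with small MAF proteins and binds antioxidant response elements, and genes for glutathione synthesis, thioredoxin reduction, quinone reduction and iron storage are transcribed. The heart, rich in mitochondria, depends on these enzymes because its respiration produces superoxide and hydrogen peroxide, and beta-adrenergic stimulation raises that load.

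The core letters of the antioxidant response element, TGACNNNGC, were searched on both strands of RefSeq promoter windows (GRCm38.p6), which run from 250 bases before to 50 bases after each gene's start. The search asked which members carry the letters by which NRF2 is known to bind. Of the 34 members 28 had a window, and 8 of them (28.6%) held the motif, against 14.0% of all 27025 genes with a window. Counted by window, it was in 8 of 37 member windows (21.6%) and in 12.4% of all windows. The 8 genes were Nfe2l2, Srxn1, Gstm5, Gclm, Prdx1, Mgst1, Txnrd1 and Sod1. Gclc, Gsr, Gsta4, Hmox1, Prdx6 and Sod3 had no window. The 4 stretches before the start shown next belong to the regulator itself, to a subunit and a reductase whose values are given further on, and to a peroxidase whose match also overlaps TGACTCA, the AP-1 motif. Capitals mark the match, on the gene's strand for Nfe2l2 and as its reverse complement GCNNNGTCA for the others.
Nfe2l2: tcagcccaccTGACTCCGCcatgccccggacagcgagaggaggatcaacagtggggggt
Gclm: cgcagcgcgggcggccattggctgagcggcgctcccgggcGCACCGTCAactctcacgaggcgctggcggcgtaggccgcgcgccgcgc
Txnrd1: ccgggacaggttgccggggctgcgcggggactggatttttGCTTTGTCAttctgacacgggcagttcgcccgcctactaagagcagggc
Prdx1: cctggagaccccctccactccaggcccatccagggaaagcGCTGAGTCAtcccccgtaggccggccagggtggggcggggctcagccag
They lie at chr2:75704855-75704913 (minus strand), chr3:122245383-122245471, chr10:82859074-82859162 and chr4:116685426-116685514 (plus strand). The matches begin 240, 134, 92 and 133 bases before the start used by RefSeq. For Txnrd1 that start lies within the gene, which spans 82833951 to 82897712 of chromosome 10. For Prdx1 it lies just inside the gene, which spans 116685544 to 116700822 of chromosome 4. A match is a run of letters and not a measured binding site, and the other windows lacked only these letters.

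Values are FPKM, a read density corrected for the length of the transcript and the size of the library, which allows levels to be compared between genes. Between hearts it still depends on what else a library holds: the median-ratio scaling factor was 0.913 for WT2368 and 0.997 to 1.05 for the other hearts. Means are given ± SD over the 3 hearts of a genotype. All hearts carried the defining transcripts of cardiac muscle: Myh6, the alpha myosin heavy chain, lay between 2393 and 2745 FPKM, and of the 4 liver markers Alb, Apoa1 and Ttr were at most 0.624. The fourth, Cyp2e1, lay between 6.74 and 14.1 in 5 hearts and at 29.2 in SRAKO2371. Sra1 was at 4.40, 6.31 and 4.23 FPKM in the WT hearts and at 1.96, 1.78 and 2.05 in the SRAKO hearts. WT2368 and SRAKO2371 held more ribosomal RNA than the others. The ribosomal RNA row AY036118 (shared with CT010467.1) was at 6242 and 3003 FPKM there against 273 to 595 in the other 4 hearts, and the mitochondrial ribosomal RNA mt-Rnr1 at 4548 and 1896 against 879 to 1122. Tests used limma on log2(FPKM + 1) over the 10201 rows that reached an FPKM of 1 in at least 3 hearts, with Benjamini-Hochberg adjustment. All 34 members passed that filter, and differences are SRAKO minus WT on that scale, which understates the change of weakly expressed genes.

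No member differed between genotypes past the adjusted threshold of 0.05 (0 of 34, against 2 rows or 0.0196% of all rows). The adjusted p was 0.999 for each member. Small differences in one direction prevailed: 27 members had a higher and 7 a lower mean log2 level in SRAKO hearts, with a median difference of 0.10, against 53.5% of all tested rows higher and a median of 0.01. The genotypes did not overlap for 5 members (8.05% of all rows), of which 4 were higher (4.28%) and 1 lower (3.76%). These were Gsta4, Cat, Sod3 and Cbr3 on the higher side and Txnrd1 on the lower. The unadjusted p was under 0.05 for 3 members (3.46% of all rows): Gsta4 and Gstm1 were higher (1.9%) and Txnrd1 lower (1.56%). With any single heart left out it was under 0.05 for 0 to 2 members, and for 0 without SRAKO2372.

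Of the single hearts, WT2368 weighed most on the count of higher members. That heart had the lowest FPKM of all 6 for 26 of the 34 members (76.5%), against 44.9% of all tested rows, and the highest for none. Its median over the members lay -0.20 from the WT mean on the log2 scale, where WT2379 and WT2378 lay at 0.09 and 0.10 and the SRAKO hearts at 0.04, 0.16 and 0.10. Without WT2368, 17 members were higher and 17 lower, with a median of -0.00 (38.9% of all rows higher, median -0.04). Leaving out any other single heart left 23 to 30 members higher. Without both hearts of high ribosomal RNA the numbers were 15 and 19, with a median of -0.03 (40.8% and -0.03 for all rows). Scaling each heart by its median ratio to the others left 26 members higher and 8 lower, with a median of 0.09 (49.3% and -0.00 for all rows). In these 3 settings 6, 8 and 6 members did not overlap, against 24.6%, 39% and 10.6% of all rows. The part of ribosomal RNA in the low member values of WT2368 was not tested.

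Most markers of immune cells also had a higher mean log2 level in SRAKO hearts, against 53.5% of all tested rows, and none passed the adjusted test. The 8 macrophage markers summed to 188 to 225.7 FPKM in WT hearts and to 226.3 to 250.4 in SRAKO hearts, with 7 of 8 markers higher and WT2368 lowest. The sums did not overlap, with a gap of less than 1 FPKM between WT2379 and SRAKO2365. The 6 neutrophil markers summed to 1.33, 11.6 and 0.935 in WT2368, WT2379 and WT2378 and to 2.72, 32.3 and 65.6 in SRAKO2365, SRAKO2371 and SRAKO2372, and all 4 that passed the filter were higher. S100a9, the most abundant of them, was at 18.2 and 33.9 in SRAKO2371 and SRAKO2372 and at most 6.54 in the other hearts. No marker of either list was at 0 in all hearts, and their part in the members' values was not tested. Tested markers of other cell types went both ways. Of cardiomyocyte markers 4 were higher and 2 lower, and of smooth muscle markers 3 and 1. Fibroblast and endothelial markers had 2 higher and 3 lower each, and all 5 erythroid and all 5 atrial markers had a lower mean log2 level. The sums of both lists overlapped. The erythroid sum was 1397 to 2096 in WT hearts, and 2425, 1070 and 1088 in SRAKO2365, SRAKO2371 and SRAKO2372. The atrial sum was 2482, 8439 and 3743 in WT2368, WT2379 and WT2378, and 2978 to 3509 in SRAKO hearts. Tested markers without overlap were Myh11 of smooth muscle (12.0 ± 2.14 in WT and 16.2 ± 0.804 in SRAKO) and C1qa of macrophages (29.5 ± 5.14 and 36.2 ± 1.71) on the higher side. Ryr2 of cardiomyocytes did not overlap on the lower side (36.5 ± 2.05 and 32.2 ± 2.68). The adjusted p was 0.999 for each (limma), and 8.05% of all rows did not overlap.

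**Figure D1:**
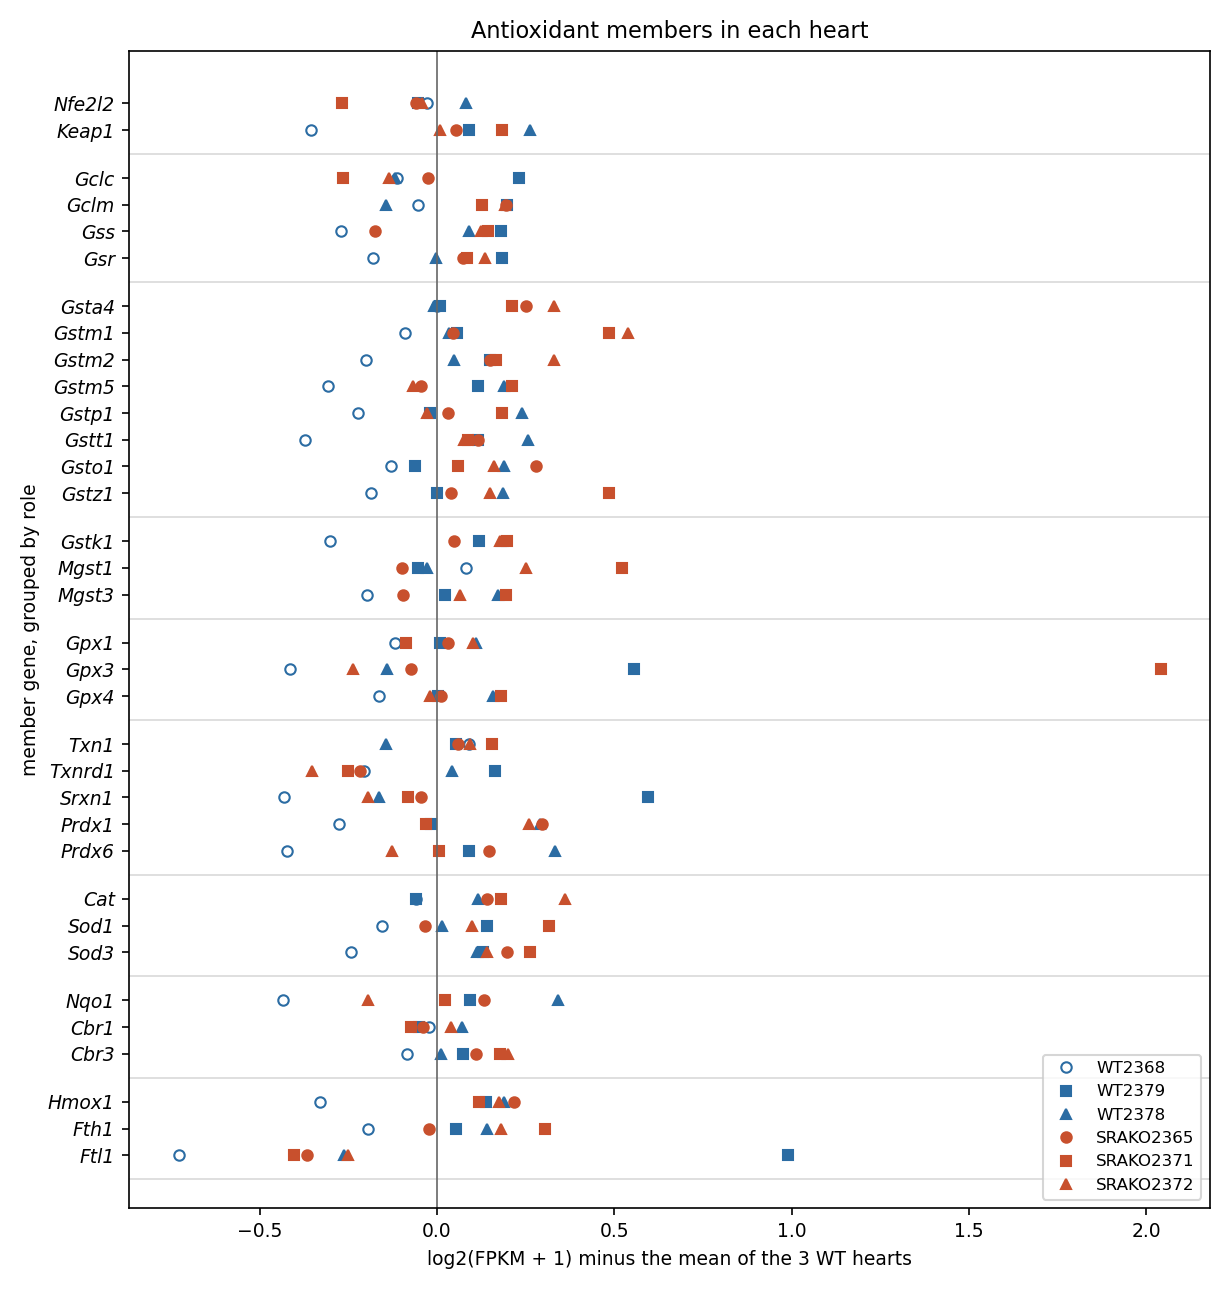
Level of each of the 34 members in each heart, as log2(FPKM + 1) minus the mean of the 3 WT hearts, grouped by role (each point is 1 heart, open circles are WT2368). WT2368 is the lowest point for 26 members, and SRAKO2371 stands far to the right for Gpx3 and WT2379 for Ftl1 and Srxn1.

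The regulators themselves differed little. Nfe2l2, which encodes NRF2, was at 13.5, 13.3 and 14.7 FPKM in WT2368, WT2379 and WT2378 and at 13.3, 11.3 and 13.4 in SRAKO2365, SRAKO2371 and SRAKO2372. The groups overlapped, and SRAKO2371 was the lowest heart (difference -0.12, SE 0.10). Keap1, its inhibitor, was at 4.92, 7.07 and 8.10 in the WT hearts, in the same order, and at 6.87, 7.61 and 6.63 in the SRAKO hearts. WT2368 alone lay below the rest, and the difference of 0.08 (SE 0.16) became -0.09 without it.

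Glutathione synthesis begins with glutamate-cysteine ligase, whose catalytic subunit is encoded by Gclc and whose modifier subunit, which raises the enzyme's activity, by Gclm. Gclc was at 2.78, 3.79 and 2.76 FPKM in WT2368, WT2379 and WT2378 and at 3.01, 2.40 and 2.72 in SRAKO2365, SRAKO2371 and SRAKO2372, a difference of -0.14 (SE 0.12). Gclm was at 1.72, 2.23 and 1.55 and at 2.23, 2.08 and 2.22, a difference of 0.17 (SE 0.11). Each gene overlapped between genotypes when taken alone.

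Their ratio within a heart, which no scaling of whole libraries can change, did not overlap. Gclm stood at 0.618, 0.588 and 0.561 of Gclc in WT2368, WT2379 and WT2378 and at 0.739, 0.867 and 0.816 in SRAKO2365, SRAKO2371 and SRAKO2372. The mean ratio was 0.589 ± 0.0284 for WT hearts and 0.807 ± 0.0644 for SRAKO hearts (± SD, n = 3 each), so that the SRAKO ratio was 1.37-fold the WT ratio. The log2 difference of the ratio was 0.45 with an SE of 0.08, and it ran from 0.40 to 0.52 on leaving out single hearts. It was taken on FPKM without the added 1, and its SE comes from the spread of the ratios and not from limma. Neither value can therefore be set directly beside those of the single genes. By exact permutation (two-sided) p was 0.1, which is the lowest value this design can reach, and 0.3 after Benjamini-Hochberg adjustment over the 6 ratios examined. Both genes are weakly expressed, which limits the precision of the ratio.

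Of the other 5 ratios, Cbr1 to Cbr3 alone kept the genotypes apart. It is described with those genes. Txn1 to Txnrd1 was 2.71 ± 0.581 in WT and 3.61 ± 0.254 in SRAKO (exact permutation p = 0.2, adjusted 0.4, n = 3 each) and overlapped through WT2368 at 3.38. Nfe2l2 to Keap1, Gstm1 to Gstm2 and Fth1 to Ftl1 overlapped more widely, with adjusted p = 0.6 for each. The 6 pairs were picked for shared function, with earlier results of these data known. How often the ratio of other pairs of rows keeps the genotypes apart was not computed.

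**Figure D2:**
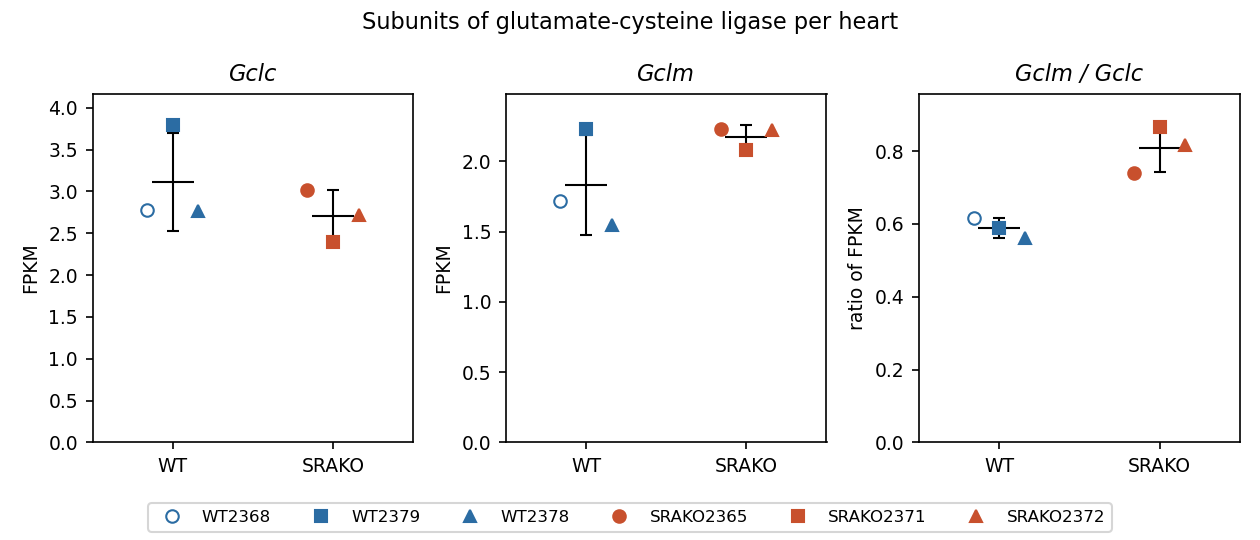
FPKM of Gclc and of Gclm and the ratio of Gclm to Gclc in each heart, by genotype (points are hearts, the line is the mean and the bar the SD, n = 3 each). Both genes overlap between genotypes, while the ratios lie from 0.561 to 0.618 in WT and from 0.739 to 0.867 in SRAKO.

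The remaining enzymes of glutathione supply showed no separation. Gss, glutathione synthetase, which adds glycine, averaged 1.54 ± 0.401 FPKM in WT hearts and 1.59 ± 0.307 in SRAKO hearts. Gsr, glutathione reductase, which returns oxidised glutathione to its thiol form with NADPH, was at 3.40 ± 0.556 and 3.68 ± 0.105. The differences were 0.03 and 0.10, less than their SEs of 0.15 and 0.11.

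Glutathione transferases couple glutathione to electrophiles. All 11 transferase members had a higher mean log2 level in SRAKO hearts (median 0.17), but 6 of 11 without WT2368 (median 0.10). With median-ratio scaling the count was again 11 of 11, with a median of 0.15. Of all tested rows 53.5%, 38.9% and 49.3% were higher in these settings, with medians of 0.01, -0.04 and -0.00. SRAKO means of the 11 transferases ran from 102% of WT for Gstm5 to 130% for Gstm1. None passed the adjusted test.

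Gsta4, an alpha-class transferase known for detoxifying the lipid peroxidation product 4-hydroxynonenal, had the steadiest WT values of the group. It was at 38.1, 38.3 and 37.9 FPKM in WT2368, WT2379 and WT2378 and at 45.6, 44.2 and 48.2 in SRAKO2365, SRAKO2371 and SRAKO2372. Every SRAKO heart lay above every WT heart, and the mean was 121% of WT (difference 0.26, SE 0.09, unadjusted p = 0.0228 and adjusted p = 0.999, limma). The difference ran from 0.23 to 0.29 on leaving out single hearts, and WT2368 was not the lowest heart for this gene. The gene spans 78182774 to 78209349 of chromosome 9 (GRCm38, plus strand, ENSMUSG00000032348).

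The 3 mu-class members lie within the Gstm cluster of chromosome 3, Gstm5 from 107895821 to 107898686, Gstm2 from 107981702 to 107986453 and Gstm1 from 108012255 to 108017973. Gstm1 was at 112, 124 and 122 FPKM in WT2368, WT2379 and WT2378 and at 123, 168 and 174 in SRAKO2365, SRAKO2371 and SRAKO2372. A pair of SRAKO hearts lay above all WT hearts, while SRAKO2365 fell among them (difference 0.36, SE 0.15, unadjusted p = 0.0466 and adjusted p = 0.999, limma). Gstm2 was at 48.7 ± 6.08 in WT and 56.6 ± 4.07 in SRAKO (difference 0.22, SE 0.13). Gstm5 lay between 17.4 and 24.9 in WT and between 20.7 and 25.3 in SRAKO, a difference of 0.03 that became -0.12 without WT2368. Mu-class genes are close in sequence, so reads may be split among them in the authors' assembly. Further genes of the class, Gstm4 and Gstm7, were listed at 4.23 to 4.80 and at 9.56 to 14.7 across hearts.

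The other soluble transferases overlapped between genotypes. Gstp1, the pi-class enzyme and the most abundant soluble transferase here after Gstm1, was at 82.9 ± 13.6 FPKM in WT and 86.0 ± 6.72 in SRAKO. Its near copies Gstp2 and the pseudogene Gstp-ps were listed at 5.74 to 8.44 and at 31.5 to 45.0 across hearts, so reads may be split among them, which was not tested. Gsto1, the omega-class enzyme, was at 30.0 ± 3.70 and 33.7 ± 2.63, and Gstz1, which isomerises maleylacetoacetate in tyrosine breakdown, at 3.797 ± 0.616 and 4.62 ± 0.930. The theta-class Gstt1 was at 9.36 ± 2.23 and 9.88 ± 0.155. In Gstt1 the 3 SRAKO hearts lay close together (9.74 to 10.05) and the WT spread came from WT2368 at 6.87.

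Transferases of mitochondria and membranes also overlapped. Mgst3, a microsomal enzyme with peroxidase activity and the strongest transferase at 151 ± 19.3 FPKM in WT and 157 ± 15.9 in SRAKO, differed by 0.05 (SE 0.14). Gstk1, of mitochondria and peroxisomes, was at 24.2 ± 4.34 and 26.5 ± 1.52. Mgst1 was the only one of the 3 in which WT2368 was the highest WT heart: it was at 15.2, 13.7 and 14.0 in WT2368, WT2379 and WT2378 and at 13.3, 21.0 and 17.2 in SRAKO2365, SRAKO2371 and SRAKO2372. Its SRAKO hearts held both the lowest and the highest value of the 6 (difference 0.23, SE 0.16), and the difference was 0.08 without SRAKO2371.

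**Figure D3:**
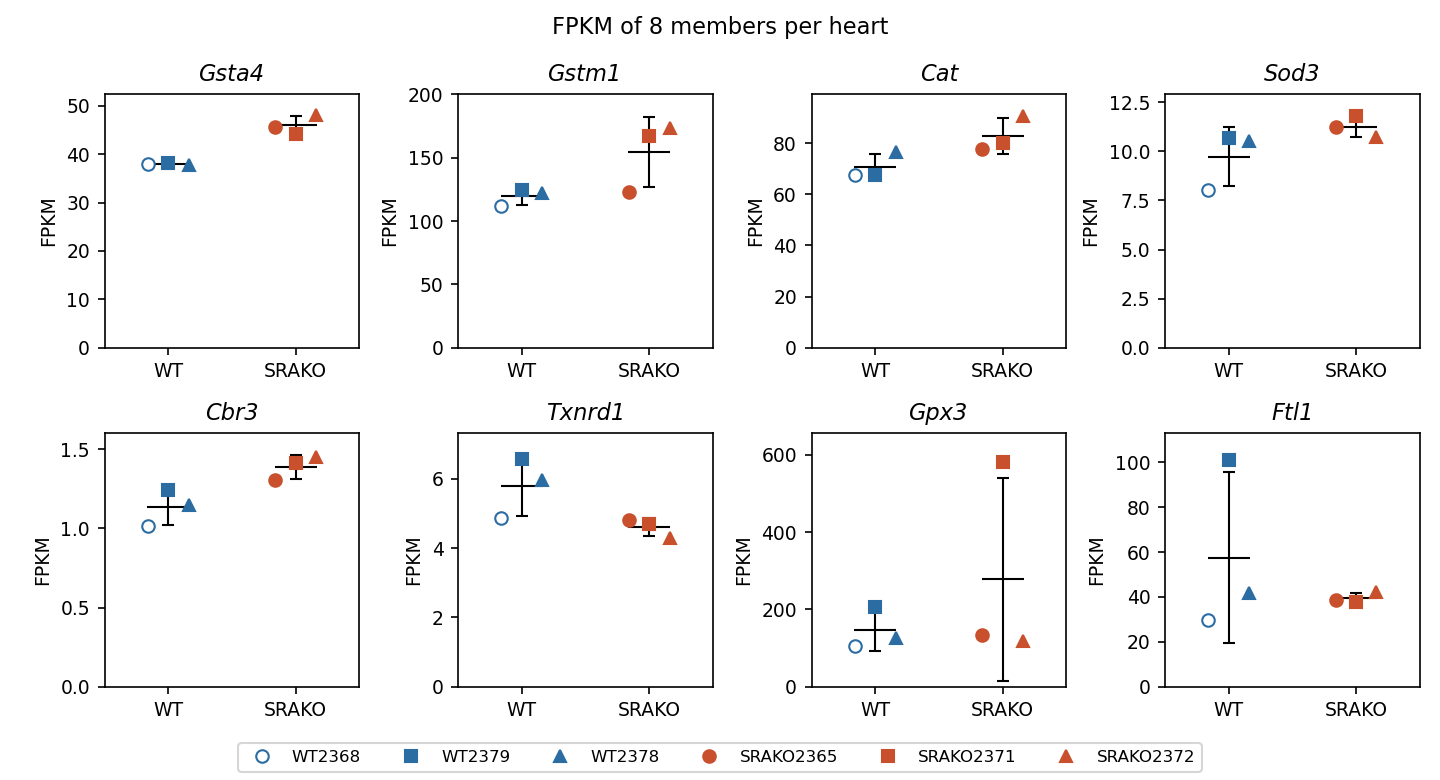
FPKM of 8 members in each heart by genotype, on linear axes from 0 (points are hearts, the line is the mean and the bar the SD, n = 3 each). Gsta4, Cat, Sod3 and Cbr3 lie higher and Txnrd1 lower in all 3 SRAKO hearts, Gstm1 is higher in a pair of them, and Gpx3 and Ftl1 each have 1 heart far above the rest.

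Glutathione peroxidases reduce peroxides with glutathione. Gpx3, the secreted plasma form, varied most of all members, with a coefficient of variation of 86.8% over the 6 hearts. It was at 105, 207 and 127 FPKM in WT2368, WT2379 and WT2378 and at 133, 581 and 119 in SRAKO2365, SRAKO2371 and SRAKO2372. SRAKO2371 alone stood apart, and the difference of 0.58 (SE 0.58) was -0.15 without it. Gpx4, which reduces lipid hydroperoxides in membranes, was at 169 ± 18.8 in WT and 175 ± 13.6 in SRAKO. Gpx1, the cytosolic and mitochondrial form, was at 10.9 ± 0.939 and 11.01 ± 0.789, with the third smallest absolute difference among the members (0.02, SE 0.10).

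SRAKO2371 also held the most transcripts of fat cells. The 8 markers of white and brown fat, among them Adipoq and Ucp1, summed to 328 FPKM there, against 52.7 to 86.0 in the WT hearts and 47.6 and 136 in SRAKO2365 and SRAKO2372. All 7 of the 8 markers that passed the filter had a higher mean log2 level in SRAKO, against 53.5% of all tested rows. None of the 8 was at 0 in all hearts. SRAKO2372, second in fat markers, had a low Gpx3 of 119, and WT2379, second in Gpx3 at 207, had low fat markers at 52.7. In whole tissue, fewer cells of a type and less RNA per cell cannot be told apart, and the part of fat in the Gpx3 value was not tested. SRAKO2371 had the highest FPKM of the 6 hearts for 11 members (32.4%), against 13.5% of all tested rows, among them Mgst1 (21.0), Gstz1 (5.67) and Fth1 (1581).

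**Figure D4:**
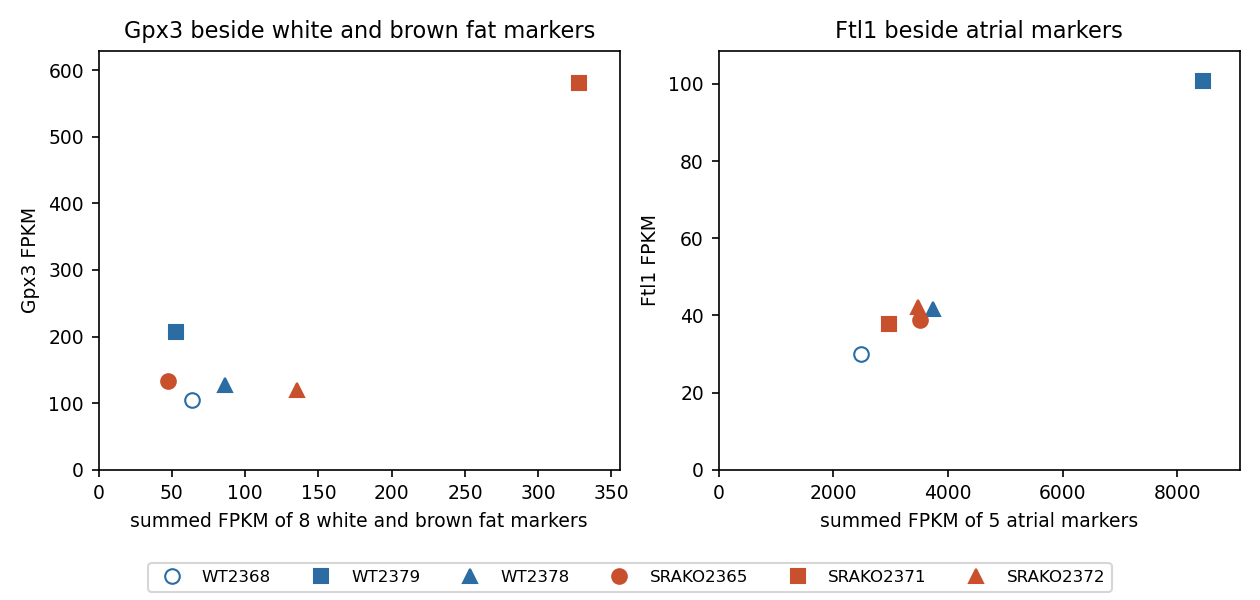
Left, Gpx3 against the summed FPKM of 8 fat markers, and right, Ftl1 against the summed FPKM of 5 atrial markers, 1 point per heart. SRAKO2371 is highest on both axes on the left (328 and 581), and WT2379 on the right (8439 and 101).

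In the thioredoxin system, Txnrd1, the cytosolic thioredoxin reductase, was the only member lower in all 3 SRAKO hearts. It was at 4.87, 6.58 and 5.97 FPKM in WT2368, WT2379 and WT2378 and at 4.83, 4.69 and 4.31 in SRAKO2365, SRAKO2371 and SRAKO2372. The gap between the groups was narrow, between WT2368 and SRAKO2365, and the mean was 79.3% of WT (difference -0.27, SE 0.12, unadjusted p = 0.0476 and adjusted p = 0.999, limma). The difference ran from -0.38 without WT2368 to -0.19 without WT2379. Txnrd1 spans chromosome 10 from 82833951 to 82897712 (plus strand), and its row joins 8 transcripts.

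Its substrate thioredoxin, Txn1, did not follow it. Txn1 was at 15.4 ± 1.39 FPKM in WT and 16.6 ± 0.600 in SRAKO (difference 0.10, SE 0.10). Srxn1, sulfiredoxin, which repairs overoxidised peroxiredoxins, was at 5.23, 11.7 and 6.50 in WT2368, WT2379 and WT2378 and at 7.15, 6.94 and 6.34 in SRAKO2365, SRAKO2371 and SRAKO2372. The high value of WT2379 set its direction: the difference of -0.11 (SE 0.24) turned to 0.19 without that heart.

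The peroxiredoxins, which reduce hydrogen peroxide through a cysteine, overlapped between genotypes. Prdx1 was at 37.2 ± 7.50 FPKM in WT and 41.7 ± 5.14 in SRAKO, and Prdx6 at 15.0 ± 4.05 and 14.8 ± 1.502. Prdx6 differed by 0.01 (SE 0.19), the smallest difference of the 34, but by -0.20 without WT2368.

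The 3 members Cat, Sod1 and Sod3 had a higher mean log2 level in SRAKO hearts, as did 53.5% of all rows, and none passed the adjusted test. The mitochondrial dismutase Sod2, which is not a member, went the other way. It was at 67.5 ± 4.02 FPKM in WT and 64.0 ± 3.15 in SRAKO (difference -0.07, SE 0.10), and it overlapped. Catalase, Cat, the peroxisomal enzyme that splits hydrogen peroxide, was at 67.6, 67.6 and 76.5 FPKM in WT2368, WT2379 and WT2378 and at 77.9, 80.02 and 90.9 in SRAKO2365, SRAKO2371 and SRAKO2372. The groups did not overlap, with a narrow gap between WT2378 and SRAKO2365 (difference 0.23, SE 0.11, unadjusted p = 0.0777 and adjusted p = 0.999, limma). The mean was 117% of WT, and the difference ran from 0.16 to 0.29 on leaving out single hearts. It spans 103453849 to 103485160 of chromosome 2 (minus strand).

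Sod3, the secreted superoxide dismutase of the extracellular matrix, was at 8.02, 10.7 and 10.5 FPKM in WT2368, WT2379 and WT2378 and at 11.2, 11.8 and 10.8 in SRAKO2365, SRAKO2371 and SRAKO2372. SRAKO2372 lay barely above WT2379, and the difference of 0.20 (SE 0.12, adjusted p = 0.999, limma) fell to 0.08 without WT2368. Sod1, the cytosolic copper-zinc enzyme, was at 170.1 ± 17.5 and 186 ± 23.1, and it overlapped.

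Among the quinone and carbonyl reductases, Nqo1, the quinone reductase most used as a readout of NRF2, did not separate the genotypes. It was at 10.1, 15.0 and 18.1 FPKM in WT2368, WT2379 and WT2378 and at 15.5, 14.3 and 12.1 in SRAKO2365, SRAKO2371 and SRAKO2372. The WT hearts spanned the SRAKO hearts, and the difference of -0.01 (SE 0.20) was -0.23 without WT2368 and 0.16 without WT2378.

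Cbr1 and Cbr3, carbonyl reductase genes, lie near each other on chromosome 16, from 93605853 to 93610505 and from 93683215 to 93690990. Cbr1 was the steadiest member, with a coefficient of variation of 4.15% and means of 16.8 ± 0.793 FPKM in WT and 16.5 ± 0.708 in SRAKO. Cbr3, the most weakly expressed member, was at 1.01, 1.24 and 1.15 in WT2368, WT2379 and WT2378 and at 1.304, 1.41 and 1.45 in SRAKO2365, SRAKO2371 and SRAKO2372. All SRAKO hearts lay above all WT hearts for Cbr3, and its mean was 122% of WT (difference 0.16, SE 0.09, adjusted p = 0.999, limma). The ratio of Cbr1 to Cbr3 was 14.9 ± 1.69 in WT and 11.9 ± 0.635 in SRAKO without overlap (exact permutation p = 0.1, adjusted 0.3, n = 3 each). Cbr3 alone already did not overlap and Cbr1 varied little, so the ratio is not a result separate from Cbr3.

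Heme and iron genes followed the single hearts. Hmox1, heme oxygenase 1, which breaks down heme and is induced by NRF2 and by heme itself, was at 4.86, 7.11 and 7.41 FPKM in WT2368, WT2379 and WT2378 and at 7.57, 6.99 and 7.32 in SRAKO2365, SRAKO2371 and SRAKO2372. The other 5 hearts lay between 6.99 and 7.57, WT2368 was the lowest, and the difference of 0.17 (SE 0.15) was 0.01 without it. Fth1, the ferritin heavy chain that oxidises and stores iron, was the most abundant member, at 1286 ± 151 in WT and 1431 ± 161 in SRAKO (difference 0.15, SE 0.14).

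Ftl1, the ferritin light chain, shares its row with the microRNA gene Gm22133 that lies inside it. It was at 29.9, 101 and 41.7 FPKM in WT2368, WT2379 and WT2378 and at 38.7, 37.8 and 42.1 in SRAKO2365, SRAKO2371 and SRAKO2372. WT2379 stood apart, and the difference of -0.34 (SE 0.38) turned to 0.16 without it. The same heart had the highest sum of the 5 atrial markers, 8439 FPKM against 2482 to 3743 in the other hearts, of which Nppa, the atrial natriuretic peptide, made up 6576. The part of atrial tissue in the Ftl1 value was not tested. The pseudogene rows Ftl1-ps1 (shared with Mir692-3) and Ftl2-ps were listed at 9.42 to 13.3 and at 1.905 to 2.95, and neither was highest in WT2379.

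**Figure D5:**
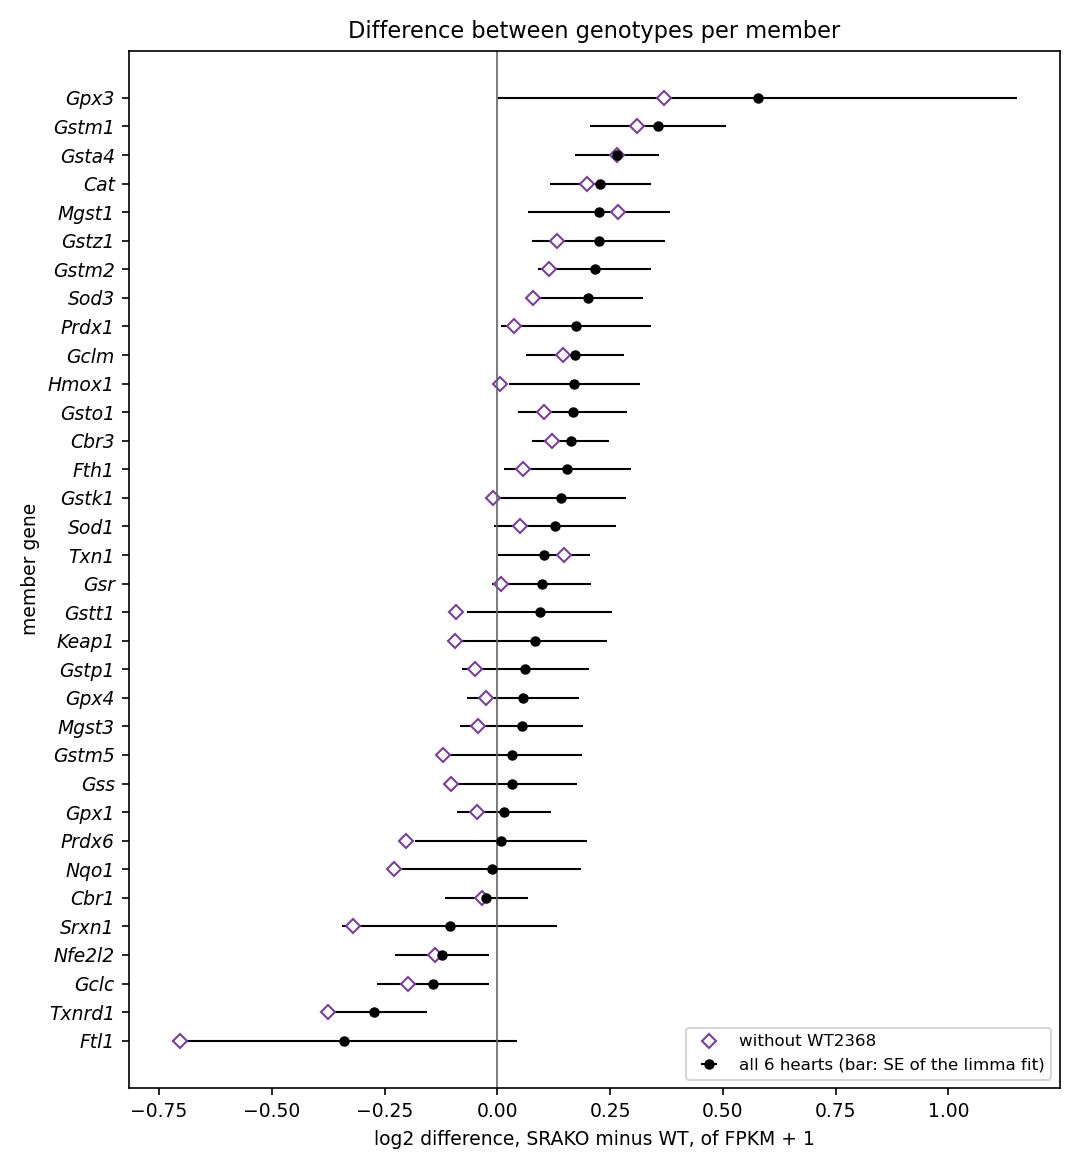
Log2 difference between genotypes for each member, ordered by size, with all 6 hearts (black, bar: SE of the limma fit) and without WT2368 (open diamonds). With all hearts 27 members lie above 0, and without WT2368 17 do, while Gsta4, Gstm1, Cat and Mgst1 stay near their value.

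Of 86 further genes in 6 lists 67 passed the filter, 42 of them higher and 25 lower (median 0.05), and 26 and 41 without WT2368, against 53.5% and 38.9% of all tested rows higher. None passed the adjusted test (0 of 67). Without overlap 4 were higher and 1 lower, against 4.28% and 3.76% of all rows, and an unadjusted p under 0.05 was reached by 2 higher and 0 lower genes, against 1.9% and 1.56%. These counts lie near the shares over all rows.

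The next list concerns the supply of NADPH, the electron donor of glutathione and thioredoxin reductases. In it 7 of 8 genes were higher (median 0.17), against 53.5% of all tested rows. WT2368 was the lowest heart for G6pdx, Pgd, Taldo1, Tkt, Idh2 and Nnt. SRAKO2371 was the highest for G6pdx, Pgd, Taldo1, Tkt and Me1, with Tkt at 11.7 there and at most 5.50 in the other hearts. Nnt, the mitochondrial transhydrogenase (in a row with AC154550.1), had the largest difference of the 67, at 23.6, 36.7 and 38.1 FPKM in WT2368, WT2379 and WT2378 and 66.9, 51.0 and 78.4 in SRAKO2365, SRAKO2371 and SRAKO2372. The groups did not overlap (difference 0.98, SE 0.22, unadjusted p = 0.00232 and adjusted p = 0.999, limma). The lowest SRAKO value, in SRAKO2371, lay above the highest WT value, in WT2378.

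In the list of further peroxiredoxins, thioredoxins and glutaredoxins 9 of 16 were higher and 7 lower (median 0.08). Txnrd3, a thioredoxin-glutathione reductase, went opposite to Txnrd1: it was at 3.32, 3.54 and 3.39 FPKM in WT2368, WT2379 and WT2378 and at 4.77, 4.12 and 4.08 in SRAKO2365, SRAKO2371 and SRAKO2372. No SRAKO heart reached down to WT (difference 0.27, unadjusted p = 0.0197 and adjusted p = 0.999, limma). Msrb3, a methionine sulfoxide reductase, was lower in all 3 SRAKO hearts, at 17.1 ± 2.33 and 14.5 ± 1.21. The gap was narrow, between WT2378 at 15.4 and SRAKO2365 at 15.3.

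Other transferases and peroxidases had 4 of 8 tested genes higher (median 0.04), led by Gstt3 (in a row with Ddt and Gm20441) at 3.67 ± 0.830 and 4.49 ± 0.445 and Gsta3 at 2.41 ± 0.482 and 2.66 ± 0.360. Glutathione turnover and transport had 9 of 13 higher (median 0.03), with 5-oxoprolinase, Oplah, at 6.23 ± 1.12 and 7.15 ± 0.660 and Lancl2 at 1.82 ± 0.196 and 1.51 ± 0.423. NRF2 partners and degradation factors had 6 of 10 higher (median 0.03), with Park7 at 20.5 ± 1.69 and 22.2 ± 1.85 and Mafg (in a row with Sirt7 and Mir6936) at 3.92 ± 0.544 and 4.19 ± 0.292. Further NRF2 targets had 7 of 12 higher (median 0.02). The heme transporter Slc48a1 (24.1 ± 1.22 and 27.0 ± 1.20) and the aldehyde oxidase Aox1 (2.52 ± 0.123 and 2.91 ± 0.254) were higher in all 3 SRAKO hearts. For Aox1 the gap was narrow, between WT2368 at 2.652 and SRAKO2371 at 2.665. The adjusted p of these genes was 0.999 in limma, as for every other gene of these lists.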

How the data were processed

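The authors deposited 1 table of FPKM, with a column for each heart. Libraries were made from RNA bound to oligo(dT) beads, per the labels' protocols. The submitters' processing notes list HISAT2 2.0.4, cutadapt 1.9, edgeR and StringTie 1.3.4d, and name the human build hg38. The identifiers are those of mouse genes, and 98.3% of 82368 transcript identifiers matched GENCODE M21 on GRCm38. Positions come from that match, and the aligned build is not settled. FPKM gives no read number per value, so precision from depth is not stated and no count test was run. Of the members 31 sit in assembled loci. Strand is not given in the labels, so overlapping genes cannot be told apart.

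Members were matched by symbol. Log2(FPKM + 1) was fitted by genotype with limma 3.58.1 in R 4.3.3 (variance trend, two-sided), on rows reaching an FPKM of 1 in 3 or more of the 6 hearts, and adjusted by Benjamini-Hochberg over all 10201. Ratios of FPKM, without the added 1, were compared on the log2 scale by exact permutation. The code was tested on simulated data. The members, gene lists and pairs were chosen with earlier results of these data known. Every heart's value, the difference, its SE and adjusted p are given for members without overlap between genotypes or at an unadjusted p under 0.05, and for Nfe2l2, Keap1, Nqo1, Hmox1, Gclc, Gclm, Txnrd1 and Srxn1 (adjusted p = 0.999 for each). Gpx3, Ftl1 and Mgst1 were added after their values were seen, and near copies are listed where reads may be shared. Alternatives were another pseudocount, other filters, median-ratio scaling, array weights and leaving out hearts. Of each further list, genes meeting either condition are named, or else the 2 with the smallest p. Sod2 was added beside the dismutases among the members. Promoter sequences are those of RefSeq.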

Additional observations from a re-analysis of the deposited data

How the results depend on the processing

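No paired analysis was possible because the sample titles share no replicate numbers between genotypes. No member was called in any of the 12 alternatives (adjusted p of at least 0.697, limma), and 17 of 34 kept their direction in all of them: Nfe2l2, Gclc, Gclm, Gsr, Gsta4, Gstm1, Gstm2, Gsto1, Gstz1, Mgst1, Txn1, Txnrd1, Prdx1, Cat, Sod3, Cbr3 and Hmox1. Causes of the changes were not tested, beyond the fewer hearts or rows that an alternative holds. Each member has a single row, so summing rows changes nothing and was not run. Of all tested rows 2 were called, 1 with a pseudocount of 0.1, 0 without a filter, 1 with a filter at 5 (which leaves 27 members), 0 without WT2368 and SRAKO2371, and 0 to 7 leaving out 1 heart. Leaving out 1 heart gave a median member difference of -0.0013 to 0.17, 17 to 30 members higher, 5 to 11 without overlap and 0 to 2 at an unadjusted p under 0.05 (with all hearts 0.10, 27, 5 and 3), with 11 without overlap when SRAKO2365 was left out and 10 when WT2379 was. Without WT2368 and SRAKO2371 the median was -0.027, with 15 higher and 8 without overlap, and the filter at 5 left 3 without overlap. Leaving out 1 heart, 15 members changed direction, with ranges of -0.095 to 0.21 for Keap1, -0.10 to 0.13 for Gss, -0.12 to 0.13 for Gstm5, -0.049 to 0.18 for Gstp1, -0.092 to 0.22 for Gstt1, -0.0088 to 0.23 for Gstk1, -0.044 to 0.14 for Mgst3, -0.044 to 0.070 for Gpx1, -0.15 to 0.98 for Gpx3, -0.024 to 0.14 for Gpx4, -0.32 to 0.19 for Srxn1, -0.20 to 0.18 for Prdx6, -0.23 to 0.16 for Nqo1, -0.056 to 0.012 for Cbr1 and -0.70 to 0.16 for Ftl1. Without WT2368 and SRAKO2371 the direction turned for Keap1 (-0.15), Gss (-0.16), Gstm5 (-0.21), Gstp1 (-0.11), Gstt1 (-0.089), Gstk1 (-0.037), Mgst3 (-0.11), Gpx3 (-0.36), Gpx4 (-0.086), Prdx6 (-0.20), Sod1 (-0.045) and Fth1 (-0.017). With array weights, which lower the influence of variable hearts, it turned for Keap1 (-0.037), Gss (-0.093), Gstm5 (-0.092), Gstp1 (-0.0058), Gstt1 (-0.020), Mgst3 (-0.023), Gpx1 (-0.0023), Gpx4 (-0.0014) and Prdx6 (-0.11), and 18 members were higher. With median-ratio scaling it turned for Prdx6 (-0.0045).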
